A study of Mus musculus with 8 samples.

Results

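The 45 genes described here make up the DNA replication and S-phase machinery, from the factors that license origins to the polymerases, the supply of deoxynucleotides and the proteins that restore chromatin behind the fork. They are a fixed list of symbols, and all 45 listed symbols were found among the 11541 genes of the deposited mouse table. The table was made from bone marrow-derived macrophages (BMMs), which are primary macrophages expanded from marrow cells in macrophage colony-stimulating factor (M-CSF). Cultures of 4 days with M-CSF at 25 ng/mL gave 4 libraries with the genotype label OGFRL1_KO (called KO) and 4 with the label OGFRL1_WT (wild type), and both groups had the same treatment. Not given in the sources used here are the allele, strain and age of the mice and whether each library is a separate animal. The p-values therefore describe only the spread among libraries, which may be technical.

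Total counts per library ranged from 39601341 to 61556269. Ogfrl1 itself had 159, 197, 149.5 and 146 CPM in KO replicates 1 to 4 and 267, 284, 166 and 135 CPM in wild-type replicates 1 to 4, so the groups overlapped and its whole-gene count does not check the labels. Of the macrophage markers 10 of 10 were among the tested genes, while B cell, T and NK cell and erythroid markers had 0 of 4 each. Wild-type replicates 1 and 2 stood apart from the other 6 libraries in their mapping statistics. The share of uniquely mapped reads was lower (76.44 and 75.76%, against 83.83 to 87% elsewhere). Mitochondrial reads made up 6.07 and 7.03%, against 1.49 to 3.17%, and ribosomal RNA reads 1.79 and 1.83%, against 2.71 to 9.1%. Of the other 6, KO replicate 2 was nearest to them in these reads (3.17 and 2.71%). Wild-type replicate 4 was farthest (1.49 and 9.1%). Values for the replication genes are therefore given with and without these libraries.

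Replication is prepared in G1, when the origin recognition complex, Cdc6 and Cdt1 load the ring-shaped MCM helicase onto DNA. Geminin later blocks Cdt1 so that no origin is loaded again in the same cycle. In S phase, Cdc45 and the GINS complex turn MCM into an active helicase, primase and polymerase alpha lay down primers, and polymerases delta and epsilon extend them with the sliding clamp PCNA. Many of these genes are transcribed under E2F factors at the G1/S boundary. M-CSF is the growth factor that keeps bone marrow macrophages dividing in culture, so cells in S phase are a usual part of such cultures. In bulk RNA, fewer cells in S phase and less replication RNA per cell cannot be told apart.

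Promoter letters were examined because E2F control is the feature that these genes are best known to share. RefSeq promoter entries (GRCm38.p6, the mm10 build of the deposited table) were matched by symbol for 37 of the 45 genes. The 250 bases before the most upstream RefSeq start of each gene were searched on both strands. For some genes this start differs from the deposited one. The windows of Cdc6 and E2f1 lie inside the deposited gene, and those of Fen1, Lig1, Mcm3, Mcm6 and Mcm7 lie at a distance from it. Ccne2, Gins1, Gins2, Gmnn, Mcm4, Pole, Prim2 and Rfc2 were not matched. One of the E2F-type letter strings TTTCCCGC, TTTGGCGC or TTTCGCGC was found in 8 of 37 (21.6%), against 431 of all 27025 promoters (1.59%) and 294 of the 8846 promoters of genes in the table (3.32%). Those 8 promoters belonged to Cdc6, Gins3, Mcm5, Mcm6, Mcm7, Orc1, Pola1 and Rfc3. Among replication genes outside the 45, 7 of 37 promoters held such a string (18.9%), and among mitosis genes 1 of 29 (3.45%). CCAAT, the letters bound by NF-Y, was found in 23 of 37 (62.2%), against 34.5% of all promoters and 37.2% of those in the table. The other replication genes had 43.2% and the mitosis genes 75.9%. The CHR-type letters TTTGAA or TTCGAA, known from mitotic promoters, were found in 7 of 37 (18.9%), against 17.5% of all promoters and 12.1% of those in the table. They were found in 13.5% of the other replication genes and 34.5% of the mitosis genes. These matches describe letters in a window and were not tested as binding sites.

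The promoters of 4 genes are shown, with the E2F-type and CCAAT letters of either strand in capitals. Mcm5 (plus strand, chr8:75109259-75109508) and Mcm6 (minus strand, chr1:128359706-128359955) encode subunits of the same helicase and each hold 2 overlapping E2F-type strings on opposite strands. Mcm6 has 1 further string 47 bases before its RefSeq start. Prim1 (plus strand, chr10:128014965-128015214) had the smallest p among the genes with an entry, and Dnmt1 (minus strand, chr9:20959889-20960138) had the highest mean read count of the 45; neither holds an E2F-type string in this window. The Mcm5 and Mcm6 promoters were added after values were seen.
Mcm5: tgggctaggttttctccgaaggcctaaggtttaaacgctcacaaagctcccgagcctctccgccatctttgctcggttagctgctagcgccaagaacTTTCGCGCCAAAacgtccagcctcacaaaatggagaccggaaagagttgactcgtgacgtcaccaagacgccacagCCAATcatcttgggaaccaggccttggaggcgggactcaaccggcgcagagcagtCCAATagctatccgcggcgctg
Mcm6: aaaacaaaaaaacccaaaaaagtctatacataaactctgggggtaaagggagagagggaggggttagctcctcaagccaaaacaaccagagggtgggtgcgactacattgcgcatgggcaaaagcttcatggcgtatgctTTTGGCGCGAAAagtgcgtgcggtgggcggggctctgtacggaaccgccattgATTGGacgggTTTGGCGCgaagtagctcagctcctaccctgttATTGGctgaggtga
Prim1: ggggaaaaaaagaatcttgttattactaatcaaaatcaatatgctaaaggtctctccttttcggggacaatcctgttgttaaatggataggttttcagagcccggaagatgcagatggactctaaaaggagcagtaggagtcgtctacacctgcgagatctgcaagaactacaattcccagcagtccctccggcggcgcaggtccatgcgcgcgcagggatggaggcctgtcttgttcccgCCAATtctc
Dnmt1: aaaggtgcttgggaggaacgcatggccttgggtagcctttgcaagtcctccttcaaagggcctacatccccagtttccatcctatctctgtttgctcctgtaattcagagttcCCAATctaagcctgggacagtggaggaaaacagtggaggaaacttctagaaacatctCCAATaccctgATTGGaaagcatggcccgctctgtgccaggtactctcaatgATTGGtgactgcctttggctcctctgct

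All 45 genes were well counted, with at least 400 reads in every library. Together they took 4530 to 4610 CPM (library-scaled read counts, with TMM factors) in the KO-labelled libraries and 4490 to 4650 CPM in wild type, so the summed replication level was nearly the same in the 8 libraries. The sum does not show single genes, which moved in both directions. In wild-type replicates 1 and 2, 14 genes lay above and 20 below the other 6 libraries. Per gene length, on the authors' deposited log2 FPKM scale turned back to FPKM, Pcna was highest with 248 to 302 FPKM across the 8 libraries. The next was Mcm6 with 97.05 to 110.3 FPKM, followed by Rrm1 with 78.9 to 96.6 FPKM. Their ranges did not overlap. Orc1 and Gins3 were lowest, with 4.11 to 4.62 and 4.13 to 5.10 FPKM, and overlapped each other.

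No replication gene passed the test between genotypes. By edgeR's quasi-likelihood test 0 of 45 passed an adjusted p (Benjamini-Hochberg) under 0.05 (0% of all 11541 genes), with a lowest adjusted p of 0.404. DESeq2 called 0 of the 45 (0.00866% of all genes) and limma-voom 0 (0% of all genes). At an unadjusted p under 0.05 there were 3 in edgeR, or 6.67% against 6.52% of all genes, 1 higher in KO (2.01% of all genes) and 2 lower (4.51% of all genes). DESeq2 had 3 at that level (10.2% of all genes) and limma-voom 0 (4.64% of all genes). Limma-voom with library quality weights departed from these, calling 25 of the 45 (55.6%, against 53.4% of all genes), 15 with higher values in KO (26.6% of all genes) and 10 with lower (26.8% of all genes). Without wild-type replicate 4, edgeR called 0 of 45 (0% of all genes), while 20 had an unadjusted p under 0.05 (45.1% of all genes). In 0 of 45 did the KO and wild-type libraries fail to overlap, where 2.64% of all genes did. Log2 fold changes (KO over wild type) were above 0 for 21 genes (46.7%, against 49.3% of all genes), with a median of -0.016 beside -0.0047 over all genes. By the authors' deposited table, none of the 45 (0) had a false discovery rate under 0.05, and neither had any other gene (0 of all genes). The lowest rate was 0.447, both among the 45 and among all genes.

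The intervals were narrow for most of these genes. The 95% confidence interval of the log2 fold change stayed inside a 2-fold change in both directions for 44 of 45 (97.8%, against 90.5% of all genes). The exception was Pold1. The interval stayed within a 1.5-fold change for 37 of 45 (82.2%, against 60.3% of all genes). Standard errors ran from 0.057 for Rrm2 to 0.27 for Tk1, with a median of 0.089.

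**Figure D1:**
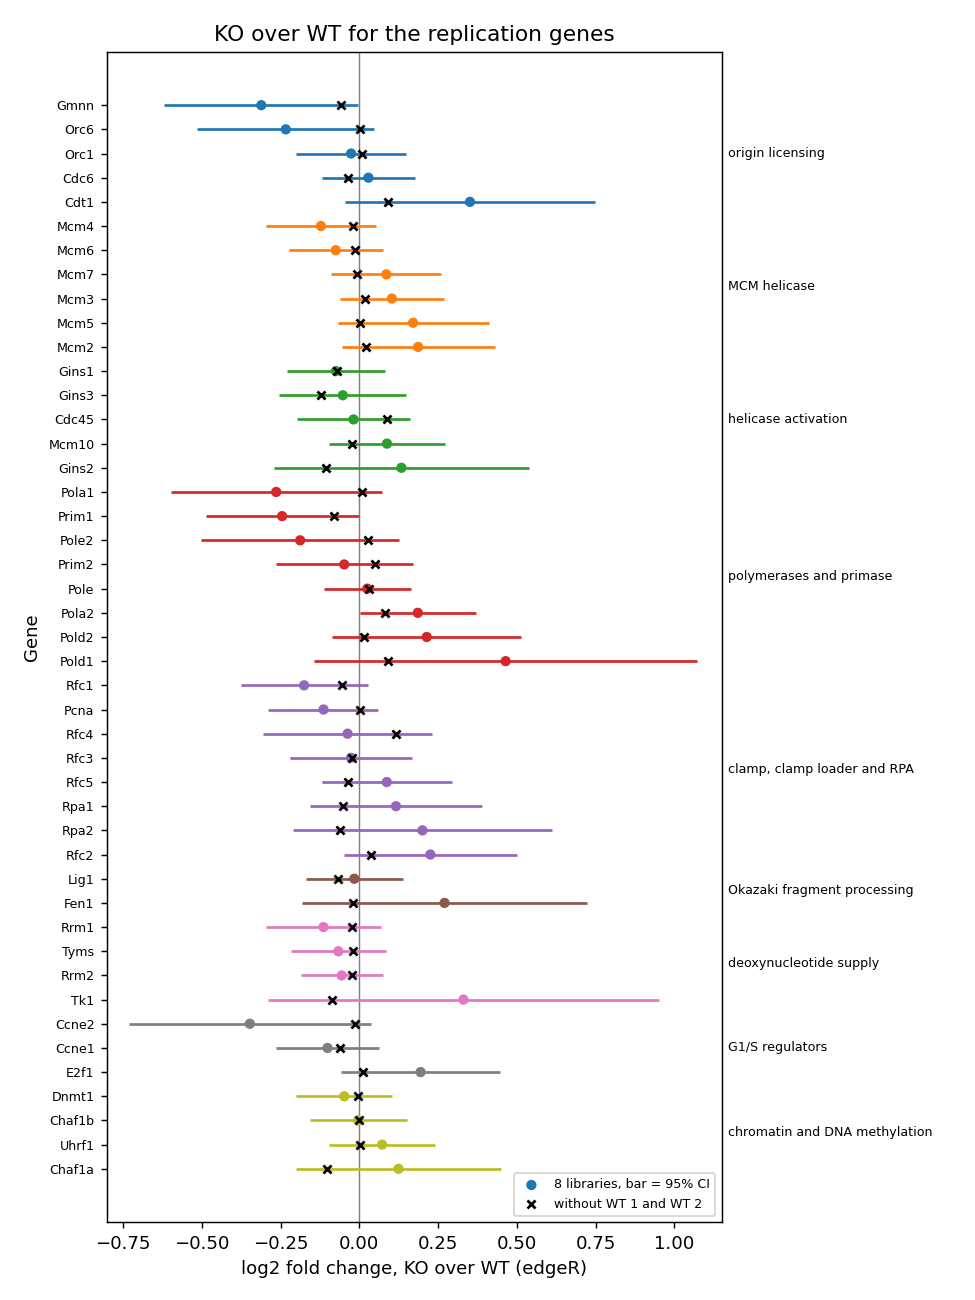
Log2 fold changes, KO over wild type (x axis, edgeR), for the 45 replication genes (y axis, grouped and coloured by role). Circles and bars are the values and 95% confidence intervals from 8 libraries, and crosses are the values without wild-type replicates 1 and 2. The circles run from -0.35 for Ccne2 to 0.46 for Pold1, whereas the crosses stay between -0.12 and 0.12.

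In origin licensing, the loading factor and its inhibitor lay on opposite sides in wild-type replicates 1 and 2, and neither passed the test. Gmnn (geminin, chr13:24751845-24761937 in mm10 by the deposited table, minus strand), the inhibitor of Cdt1, had 53.3, 59.8, 54.9 and 59 CPM in KO replicates 1 to 4 and 87.6, 75.9, 55.7 and 62.5 CPM in wild-type replicates 1 to 4. Wild-type replicates 1 and 2 were above the other 6 libraries, and wild-type replicates 3 and 4 lay within or just above the KO range. Group means were 56.8 ± 3.15 against 70.4 ± 14.2 CPM (SD, n = 4), and the log2 fold change was -0.31 (SE 0.14) with an edgeR adjusted p of 0.404 and -0.059 without wild-type replicates 1 and 2. Cdt1 (chr8:122568015-122573130, plus strand), the MCM loading factor, had 68.01, 57.1, 78.5 and 75.6 CPM in KO replicates 1 to 4 and 41.2, 46.5, 61.5 and 69.4 CPM in wild-type replicates 1 to 4. Here wild-type replicates 1 and 2 were the lowest of the 8 libraries, and the groups overlapped. Means were 69.8 ± 9.54 against 54.7 ± 13.1 CPM (SD, n = 4), and the log2 fold change was 0.35 (SE 0.17) with an edgeR adjusted p of 0.404 and 0.092 without those libraries. Orc1 and Orc6, subunits of the origin recognition complex, and the ATPase gene Cdc6 ranged from 12.3 to 57.9 CPM, with log2 fold changes from -0.23 to 0.029.

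The 6 MCM subunits, which form one ring in equal numbers, did not all lie on the same side in wild-type replicates 1 and 2, and none passed the test. Mcm6 (chr1:128331591-128359656, minus strand), the most abundant of them per length, had 287, 308, 288 and 282 CPM in KO replicates 1 to 4 and 320.0, 318, 301 and 286 CPM in wild-type replicates 1 to 4. Mcm2 (chr6:88883474-88898780, minus strand) had 150.3, 138, 156 and 154 CPM in KO replicates 1 to 4 and 114, 117, 141 and 154 CPM in wild-type replicates 1 to 4. Wild-type replicates 1 and 2 were the highest libraries for Mcm6 and the lowest for Mcm2. Group means for Mcm6 were 291 ± 11.4 against 306 ± 15.8 CPM (SD, n = 4), and those for Mcm2 149.6 ± 8.19 against 131 ± 19.3 CPM (SD, n = 4). Their log2 fold changes were -0.075 (SE 0.066) and 0.19 (SE 0.11). The edgeR adjusted p was 0.468 for Mcm6 and 0.404 for Mcm2. Mcm4 followed Mcm6, with wild-type replicates 1 and 2 above all others. Mcm3, Mcm5 and Mcm7 followed Mcm2, with those libraries below all others. These 4 subunits ranged from 120.1 to 226 CPM, with log2 fold changes from -0.12 to 0.17. Without wild-type replicates 1 and 2 the log2 fold changes of all 6 subunits lay between -0.019 and 0.022.

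**Figure D2:**
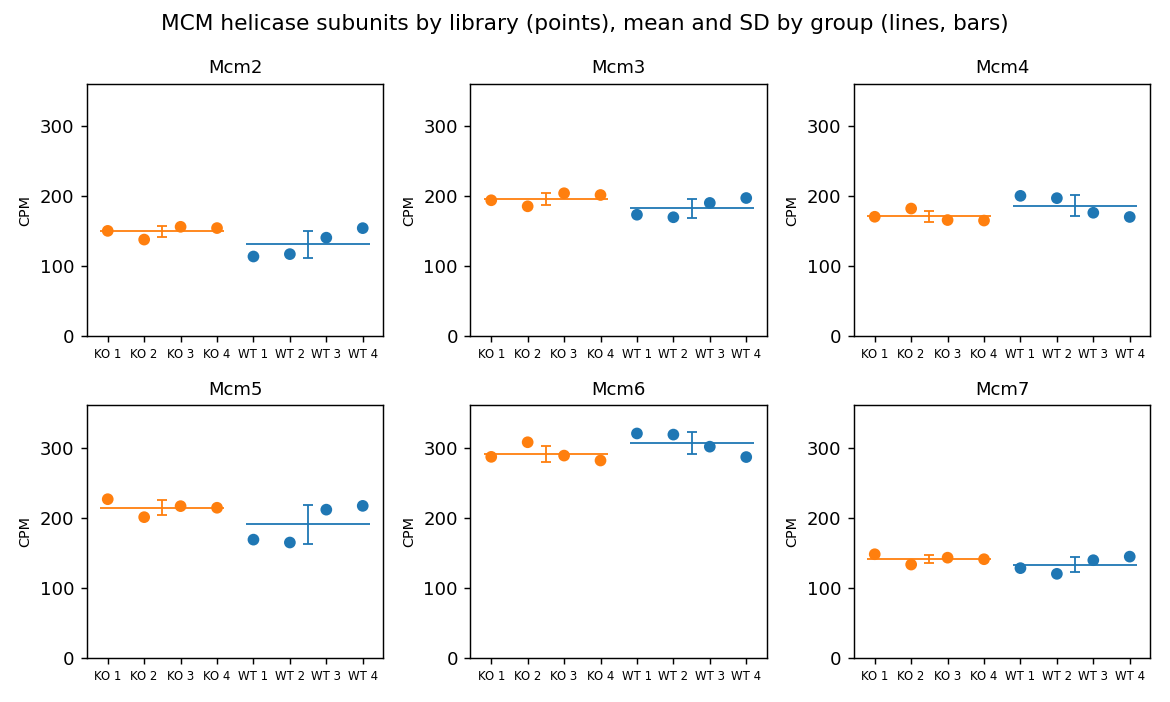
Library-scaled read counts (CPM, y axis) of the 6 MCM helicase subunits in each library (x axis, KO orange, wild type blue), with lines for the group means and bars for the SD (n = 4). Wild-type replicates 1 and 2 are the highest libraries for Mcm4 and Mcm6 and the lowest for Mcm2, Mcm3, Mcm5 and Mcm7.

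Among the factors that activate the helicase, differences were small. Mcm10 (chr2:4990724-5012791, minus strand), which helps the loaded helicase to open origins, had 62.4, 60.6, 62.1 and 58.9 CPM in KO replicates 1 to 4 and 51, 54.5, 61.01 and 62.9 CPM in wild-type replicates 1 to 4. Gins1 (chr2:150909594-150931280, plus strand), a subunit of the GINS complex, had 20.8, 23.5, 22 and 21.6 CPM in KO replicates 1 to 4 and 23.4, 23.1, 23.4 and 22.7 CPM in wild-type replicates 1 to 4. For Mcm10 wild-type replicates 1 and 2 were the lowest libraries, and for Gins1 all wild-type values lay within the KO range. The log2 fold changes were 0.088 (SE 0.081) and -0.074 (SE 0.069), with edgeR adjusted p of 0.481 and 0.487, and became -0.023 and -0.070 without wild-type replicates 1 and 2. Cdc45, Gins2 and Gins3 ranged from 9.92 to 41.7 CPM with log2 fold changes from -0.052 to 0.13. Gins2 was highest in wild-type replicate 4 (39.1 CPM) and lowest in wild-type replicate 2 (22.4 CPM).

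Beside Gmnn, the genes with an unadjusted p under 0.05 were the primase gene Prim1 and the polymerase gene Pola2. Prim1 (chr10:128015215-128030030, plus strand), the catalytic subunit of primase, had 41.02, 44.2, 36.7 and 38.1 CPM in KO replicates 1 to 4 and 54.7, 50.3, 42.7 and 41.97 CPM in wild-type replicates 1 to 4. Pola2 (chr19:5940543-5964206, minus strand), the accessory subunit of polymerase alpha, had 47.2, 44.3, 45.2 and 43.4 CPM in KO replicates 1 to 4 and 37.5, 35.6, 43.8 and 41.4 CPM in wild-type replicates 1 to 4. For Prim1 wild-type replicates 1 and 2 were highest, and for Pola2 they were lowest, and both proteins belong to the polymerase alpha-primase complex. Means were 40.0 ± 3.33 against 47.4 ± 6.17 CPM (SD, n = 4) for Prim1 and 45.1 ± 1.64 against 39.6 ± 3.69 CPM (SD, n = 4) for Pola2. Their log2 fold changes were -0.24 (SE 0.11) and 0.19 (SE 0.081), with an edgeR adjusted p of 0.404 for both, and became -0.081 and 0.081 without those libraries. Pola1 (chrX:93304766-93632155, minus strand), the catalytic subunit of polymerase alpha and the one with most reads in this group, had 112, 127, 102 and 101 CPM in KO replicates 1 to 4 and 161, 150.4, 115 and 105 CPM in wild-type replicates 1 to 4. It followed Prim1, with wild-type replicates 1 and 2 above the other 6 libraries. Its log2 fold change was -0.26 (SE 0.15) with an edgeR adjusted p of 0.404, and 0.0086 without those libraries. Prim2, Pold1, Pold2, Pole and Pole2, the other primase subunit and subunits of polymerases delta and epsilon, ranged from 17.7 to 92.4 CPM. Their log2 fold changes ran from -0.19 to 0.46. Pold1, the catalytic subunit of polymerase delta, spread most, with its lowest value, 28.2 CPM, in wild-type replicate 1 and its highest, 71.7 CPM, in KO replicate 3. Its log2 fold change was 0.46 (SE 0.27) with an edgeR adjusted p of 0.404, and 0.093 without wild-type replicates 1 and 2.

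Of the sliding clamp, its loader and the single-strand binding protein RPA, Pcna had the highest level per length. Pcna (chr2:132249286-132253180, minus strand), the clamp that holds polymerases on DNA, had 312, 328, 318 and 324 CPM in KO replicates 1 to 4 and 381, 366, 321 and 319 CPM in wild-type replicates 1 to 4. Wild-type replicates 3 and 4 lay inside the KO range and replicates 1 and 2 above it. Means were 320.4 ± 6.78 against 347 ± 31.3 CPM (SD, n = 4), and the log2 fold change was -0.11 (SE 0.077) with an edgeR adjusted p of 0.406 and 0.0017 without wild-type replicates 1 and 2. Rfc1 (chr5:65261852-65335639, minus strand), the large subunit of the clamp loader, had 128, 134, 116 and 117 CPM in KO replicates 1 to 4 and 156, 147, 129 and 128 CPM in wild-type replicates 1 to 4, with the same libraries highest. Its log2 fold change was -0.18 (SE 0.089) with an edgeR adjusted p of 0.404, and -0.054 without those libraries. Rfc2, Rfc3, Rfc4, Rfc5, Rpa1 and Rpa2 ranged from 15.3 to 203 CPM, with log2 fold changes from -0.037 to 0.23. In Rfc2, Rfc5, Rpa1 and Rpa2 wild-type replicates 1 and 2 were below all others, so subunits of the loader differed in direction as those of the helicase did.

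The lagging strand is finished by the flap nuclease Fen1 and DNA ligase Lig1. Fen1 (chr19:10199132-10203943, minus strand) had 77.1, 60.0, 80.4 and 86.2 CPM in KO replicates 1 to 4 and 48.5, 49.04, 67.5 and 86.5 CPM in wild-type replicates 1 to 4. Its range within wild type exceeded that within KO, and the group means were 75.9 ± 11.3 against 62.9 ± 18.1 CPM (SD, n = 4). The log2 fold change was 0.27 (SE 0.20) with an edgeR adjusted p of 0.417, and -0.021 without wild-type replicates 1 and 2. Lig1 (chr7:13277313-13311427, plus strand) had 193, 178, 184 and 185 CPM in KO replicates 1 to 4 and 179, 182, 183 and 204 CPM in wild-type replicates 1 to 4, with group means of 185 ± 6.26 against 187 ± 11.8 CPM (SD, n = 4). Its log2 fold change was -0.016 (SE 0.068) with an edgeR adjusted p of 0.879, and -0.067 without those libraries.

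For the deoxynucleotide supply, Rrm1 (chr7:102441695-102469771, plus strand), the large subunit of ribonucleotide reductase, had 328, 359.9, 319 and 315 CPM in KO replicates 1 to 4 and 386, 373, 351 and 320.2 CPM in wild-type replicates 1 to 4. Tk1 (chr11:117815519-117826014, minus strand), the thymidine kinase of the salvage pathway, had 71.6, 54.5, 75.7 and 81.4 CPM in KO replicates 1 to 4 and 36.3, 38.3, 65.7 and 84.7 CPM in wild-type replicates 1 to 4. In Tk1 wild-type replicates 1 and 2 had less than any other library and wild-type replicate 4 had the most, so the wild-type group spanned the KO group. Means were 330.5 ± 20.3 against 358 ± 28.8 CPM (SD, n = 4) for Rrm1 and 70.8 ± 11.6 against 56.2 ± 23.2 CPM (SD, n = 4) for Tk1. The log2 fold changes were -0.11 (SE 0.081) and 0.33 (SE 0.27), with edgeR adjusted p of 0.413 and 0.448, and became -0.022 and -0.087 without those libraries. Rrm2, the small reductase subunit, and the thymidylate synthase gene Tyms had log2 fold changes of -0.056 and -0.066 and 41.9 to 163 CPM.

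Among the G1/S regulators, Ccne2 (chr4:11191351-11204779, plus strand), a cyclin E that drives entry into S phase with Cdk2, had 89.3, 106, 86.5 and 85.1 CPM in KO replicates 1 to 4 and 142, 139, 99.3 and 85.7 CPM in wild-type replicates 1 to 4. Wild-type replicates 3 and 4 lay within the KO range and replicates 1 and 2 above it. Means were 91.7 ± 9.51 against 117 ± 28.5 CPM (SD, n = 4), and the log2 fold change was -0.35 (SE 0.17) with an edgeR adjusted p of 0.404 and -0.012 without wild-type replicates 1 and 2. E2f1 (chr2:154559400-154569892, minus strand), an activating E2F factor, had 54.6, 53.04, 59.4 and 55.9 CPM in KO replicates 1 to 4 and 41.5, 42.7, 55.7 and 54.7 CPM in wild-type replicates 1 to 4. Its wild-type replicates 1 and 2 were the lowest, opposite to Ccne2. Means were 55.7 ± 2.70 against 48.7 ± 7.58 CPM (SD, n = 4), and the log2 fold change was 0.19 (SE 0.11) with an edgeR adjusted p of 0.404 and 0.013 without those libraries. Ccne1, the other cyclin E, had 27.8 to 33.1 CPM and a log2 fold change of -0.10.

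Genes that restore chromatin and DNA methylation after the fork differed little between the groups. Dnmt1 (chr9:20907206-20959888, minus strand), the maintenance DNA methyltransferase, had 429.7, 432, 414 and 393 CPM in KO replicates 1 to 4 and 454, 434, 436 and 401 CPM in wild-type replicates 1 to 4. Uhrf1 (chr17:56303337-56323486, plus strand), which guides Dnmt1 to newly copied DNA, had 224, 201, 222 and 222 CPM in KO replicates 1 to 4 and 198, 195, 206 and 228 CPM in wild-type replicates 1 to 4. Both genes overlapped between groups. Their log2 fold changes were -0.048 (SE 0.067) and 0.073 (SE 0.074), with edgeR adjusted p of 0.639 and 0.518, and became -0.0035 and 0.0034 without wild-type replicates 1 and 2. Chaf1a and Chaf1b, subunits of the chromatin assembly factor CAF-1, ranged from 38.3 to 101 CPM with log2 fold changes of 0.12 and -0.0030.

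The spread among these genes was widest in wild-type replicates 1 and 2, but the other 6 libraries were not alike. The SD over the 45 genes of the log2 deviation from the gene mean was 0.30 and 0.25 there, against 0.067 to 0.17 elsewhere. For Pold1, KO replicate 2 (43.1 CPM) and wild-type replicate 3 (50.8 CPM) lay between that pair and the rest (64.7 to 71.7 CPM). For Ccne2 they had 106 and 99.3 CPM, against 85.1 to 89.3 CPM in the rest. This order was not counted over the 45 genes. In 14 of the 45 (31.1%, against 35.3% of all genes) wild-type replicates 1 and 2 both lay above the other 6, and in 20 (44.4%, against 34.9% of all genes) both lay below. Without them 0 of 45 were called by edgeR (0% of all genes) and 0 had an unadjusted p under 0.05 (0.996% of all genes), in a fit with 2 wild-type libraries. The log2 fold changes then ran from -0.12 to 0.12, with an SD across the 45 genes of 0.054 in place of 0.18. Of the 45, 19 turned sign and 20 were above 0 (44.4%, against 49.4% of all genes). The SD and the sign turns were not computed over all genes, so they cannot be called particular to these 45.

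**Figure D3:**
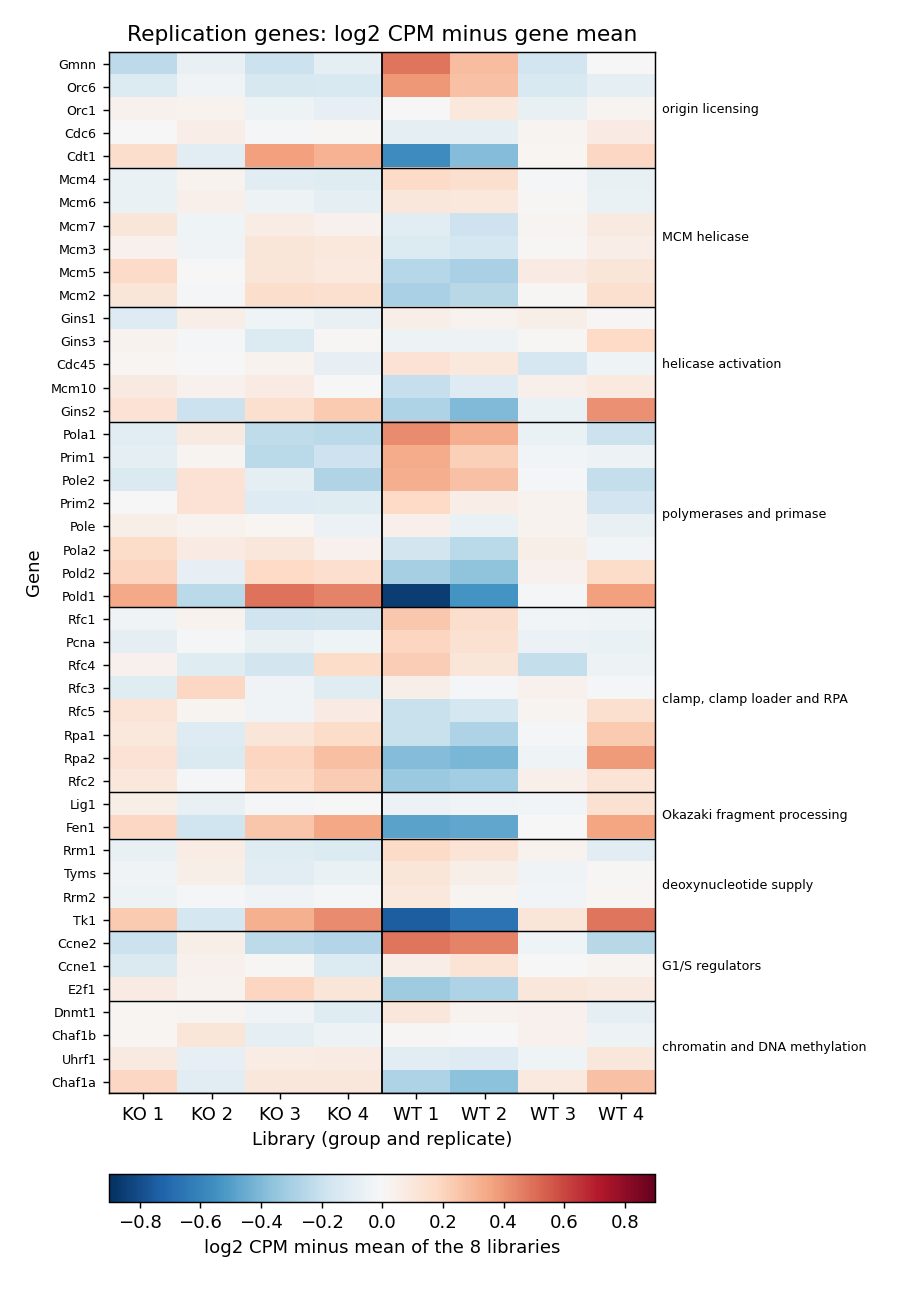
Log2 CPM of each replication gene (rows, grouped by role) in each library (columns, KO left of the line), as the difference from the gene's mean over the 8 libraries. Columns for wild-type replicates 1 and 2 hold the largest deviation of most genes, in both directions, with Pold1 and Tk1 low and Gmnn and Ccne2 high.

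Transcript GC content, measured on the longest GENCODE M21 transcript of each gene, moved with this spread. Across the 45 genes, which come from the same 8 libraries and are not independent replicates, Spearman's rho between the log2 fold change and GC content was 0.73, beside 0.71 across 11113 genes. Without wild-type replicates 1 and 2 it was 0.02, beside 0.09. The 14 genes that were high in both those libraries had a median GC content of 45.5%, and the 20 that were low had 52.2%. Ccne2 had the lowest GC content of the 45 (36.3%) and the most negative log2 fold change, and Pold1 the highest (61.0%) and the most positive. With offsets that remove a smooth GC trend from each library, edgeR called 0 of 45 (0% of all genes), 3 had an unadjusted p under 0.05 (6.26% of all genes), and 24 were above 0 (48.7% of all genes). Those 3 were Gmnn at -0.33, Pola2 at 0.25 and Lig1 at -0.17 on the log2 scale, so Lig1 took the place of Prim1, then at -0.086. Lig1 had been at -0.016 without offsets, and Dnmt1 went from -0.048 to -0.23. Nearer to 0 than without offsets were Cdt1 at 0.089, Ccne2 at 0.0046 and Pola1 at -0.034. The part of GC content in these differences was not tested beyond these fits.

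**Figure D4:**
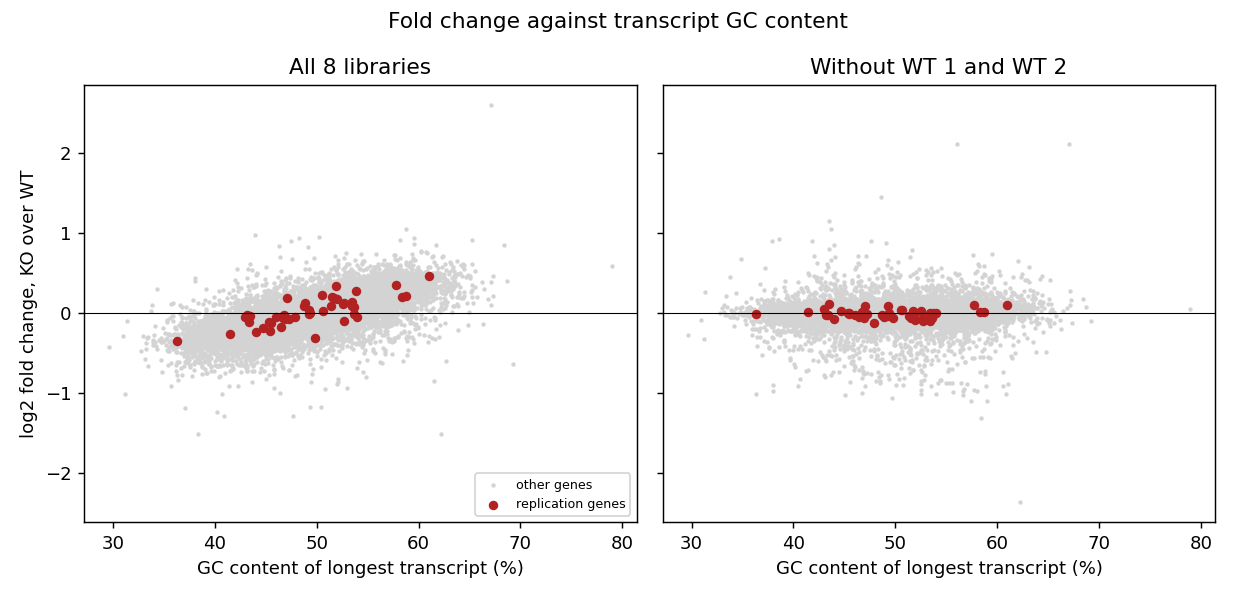
Log2 fold change, KO over wild type (y axis), against the GC content of the longest transcript (x axis, %) for the 45 replication genes (red) and all other genes (grey), with all 8 libraries (left) and without wild-type replicates 1 and 2 (right). The rising trend on the left (rho 0.73 for the red points) is nearly flat on the right (rho 0.02).

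The other genes of the pathway gave the same count of 0 calls. Of 48 further replication genes, 0 passed in edgeR, 12 had higher (25%, against 49.3% of all genes) and 36 lower values in the KO-labelled libraries, and the median log2 fold change was -0.12. The 4 at an unadjusted p under 0.05 were all lower (8.33%, against 4.51% of all genes), and the median was -0.0048 without wild-type replicates 1 and 2. Dscc1, which loads the clamp for sister chromatid cohesion, had 6.86 ± 0.586 against 9.09 ± 1.83 CPM (SD, n = 4), and the fork protection gene Tipin 41.7 ± 3.68 against 52.5 ± 9.13 CPM (SD, n = 4), both with an edgeR adjusted p of 0.404. Of 24 E2F and Rb regulators 0 passed, with 8 higher (33.3%, against 49.3% of all genes), 16 lower, 0 at an unadjusted p under 0.05 (6.52% of all genes) and a median of -0.11, or 0.010 without those libraries. Lin37 and Lin9, subunits of the DREAM and MuvB complexes, had log2 fold changes of 0.35 (SE 0.16) and -0.40 (SE 0.20). Of 34 mitosis genes 0 passed, with 9 higher (26.5%, against 49.3% of all genes), 25 lower, of which 4 were at an unadjusted p under 0.05 (11.8%, against 4.51% of all genes), and a median of -0.15, or -0.022 without those libraries. Ndc80 and Nuf2, partners in the kinetochore, had 57.2 ± 7.20 against 76.6 ± 18.2 CPM (SD, n = 4) and 76.8 ± 9.19 against 98.5 ± 18.9 CPM (SD, n = 4), each with an edgeR adjusted p of 0.404. Mean transcript GC content was 46.4% for the further replication genes, 48% for the E2F and Rb regulators and 47.2% for the mitosis genes. Over all genes it was 49.4%. With GC offsets the medians of these lists were -0.0079, -0.041 and -0.056, in the same order. The part of GC content in them was not tested further.

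Summed levels of cell type markers also varied between libraries. The 10 macrophage markers summed to 19900 to 21700 CPM in the KO-labelled libraries and 17300 to 20600 CPM in wild type, with wild-type replicates 1 and 2 lowest. Lyz2 gave 70.6 to 73.4% of this sum, and the other 9 markers, at 5330 to 5840 against 4880 to 5640 CPM, also had those libraries lowest. The 9 neutrophil markers summed to 275 to 310 CPM against 316 to 354 CPM, without overlap, but Ngp gave 33.2 to 42.8% of this sum and the other 8 overlapped, at 169 to 198 against 189 to 236 CPM. The 5 tested progenitor markers summed to 107 to 115 CPM against 112 to 139 CPM. Whether Cd48, the main part of this sum, is specific to progenitors in these cultures was not tested. This sum was 85.9 to 91.2% Cd48, and the other 4 markers gave 10.9 to 16.1 against 12.3 to 17.1 CPM, with wild-type replicate 1 (12.3 CPM) among the lower libraries and wild-type replicate 2 (17.1 CPM) the highest. The 5 stromal markers summed to 22.7 to 89.2 CPM against 11.7 to 123 CPM. By direction of the log2 fold change, 7 of 10 macrophage, 2 of 9 neutrophil, 1 of 5 progenitor and 0 of 5 stromal markers were above 0, beside 49.3% of all genes, and 0 of these 29 passed in edgeR. At an unadjusted edgeR p under 0.05, 3 of 9 neutrophil markers were lower (33.3%, against 4.51% of all genes). At that level 1 of 10 macrophage markers was higher (2.01% of all genes), and 0 progenitor or stromal markers were found. Groups did not overlap for 1 of the 9 neutrophil markers, Lcn2 (2.64% of all genes). Of the 2 markers with the smallest p in each list, Spi1 and Cd14 (macrophage) had log2 fold changes of 0.24 (SE 0.096) and 0.33 (SE 0.15), and S100a8 and Lcn2 (neutrophil) -0.39 (SE 0.13) and -0.37 (SE 0.13). Myb and Cd48 (progenitor) had -0.46 (SE 0.21) and -0.17 (SE 0.096), and Sparc and Col1a2 (stromal) -0.34 (SE 0.58) and -0.37 (SE 0.66). Their edgeR adjusted p ran from 0.404 to 0.706. With GC offsets Spi1 (-0.079) and Cd48 (0.035) changed sign. Median log2 fold changes of the lists were 0.11 (macrophage), -0.15 (neutrophil), -0.17 (progenitor) and -0.33 (stromal). In the same order, the medians were 0.0068, -0.21, -0.24 and -0.90 without wild-type replicates 1 and 2. With GC offsets they were 0.007, -0.22, 0.0068 and -0.36. Gata2 of the progenitor list and Dcn and Lum of the stromal list were not used here. The part of these cells in the values of the replication genes was not tested.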

How the data were processed

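The authors deposited raw read counts per gene, from featureCounts on STAR alignments to the mm10 build (per the submitters' processing notes and the file headers). The deposited log2 FPKM values are the authors' fragments per kilobase, scaled to mapped reads, per the file headers, and serve here only to compare levels between genes. The deposited p-value, false discovery rate and log2 fold change columns are the authors' own comparison, with a tool not given in the sources used here, as are the annotation release, software versions, counting strand and any filter on genes. Groups follow the genotype label, and replicates are numbered in accession order.

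KO and wild-type counts of all 11541 genes were compared with edgeR 4.0.16 under R 4.3.3 (two-sided quasi-likelihood test with TMM scaling), with Benjamini-Hochberg adjustment over all genes. The default expression filter removed 0 genes. Standard errors were taken from the F statistic. The script was tested on simulated data. No pair of libraries agreed within sampling noise (chi-square per degree of freedom 7.25 to 346). Other settings were DESeq2 1.42.0, RLE factors, limma 3.58.1 voom without and with quality weights, other filters, libraries left out, offsets for GC content (known for 96.3% of genes, 45 of the 45) and a ribosomal RNA covariate. A median from the log2 FPKM columns was added after the data were seen. The 45 genes and the lists were chosen with earlier results of these data known. Genes with full values are, per role, the member with the highest mean CPM and that with the smallest p (the next smallest where they coincide), plus the 5 members with the smallest p, 19 genes together. From the other lists the 2 members with the smallest p were taken. Gmnn, due a printed promoter by the rule for promoters (the 2 smallest p and the highest mean CPM), had no entry.

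By GENCODE M21, exons of 14 of the 45 genes overlap a gene on the opposite strand and those of 3 a gene on the same strand. Pcna and Tyms have named pseudogenes. Reads shared with these were not examined, so values of these genes are less certain.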

Additional observations from a re-analysis of the deposited data

Results flagged for a closer look

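Of 90 sets of 4 library values (45 genes in each group), 4 had a highest or lowest library whose gap to the nearest other exceeded Dixon's 95% limit. Chance flags about 1 in 20 such sets. The sets of Orc6, Pold2 and Uhrf1 stood out in KO replicate 2. Orc6 was highest there (31.0 CPM, next 29.1), and Pold2 (24.9 CPM, next 29.2) and Uhrf1 (201 CPM, next 222) were lowest there. Lig1 was highest in wild-type replicate 4 (204 CPM, next 183).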

How the results depend on the processing

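No paired analysis was possible because the labels carry no replicate numbers shared between the groups. The count of replication genes called stayed at 0 in 16 of 17 refits. The refit without a filter was the main fit again, because the default filter removed 0 genes. With library quality weights limma-voom called 25 of the 45 (55.6%, against 53.4% of all genes), 15 with higher and 10 with lower values in KO, and 28 had an unadjusted p under 0.05 (62.2%, against 60.4% of all genes). It called 6162 of all genes, where wild-type replicate 4 had the lowest weight (0.185) and KO replicate 1 the highest (3.67). Wild-type replicates 1, 2 and 3 had weights of 0.774, 1.02 and 0.392, and KO replicate 2 had 0.491. Within wild type this fit therefore gave most weight to replicates 1 and 2. DESeq2 called 1 of all genes, and the remaining refits called 0 of all genes. The 3 genes at an unadjusted p under 0.05 became 1 with RLE factors (6.26% of all genes), and 0 with limma-voom (4.64%), with the ribosomal RNA covariate (7.09%) or without wild-type replicates 1 and 2 (0.996%). Leaving out each library in turn gave 0 to 20 such genes, with 20 (44.4%, against 45.1% of all genes) and a lowest edgeR adjusted p of 0.0877 without wild-type replicate 4, 5 without wild-type replicate 3 (11.1%, against 14.5%), 2 without KO replicate 2 (4.44%, against 14.1%), and 0 without any of the others (1.16 to 1.94% of all genes). The median log2 fold change ran from -0.020 to 0.010 over these. On the deposited log2 FPKM scale it was -0.014. Among the 19 genes given in full, Lig1 changed sign with quality weights (0.035), and across single libraries left out its values ran from -0.037 to 0.030, above 0 without KO replicate 2 (0.0031) or wild-type replicate 4 (0.030). Without wild-type replicates 1 and 2 the sign changed for Mcm10 (-0.023), Pola1 (0.0086), Pcna (0.0017), Fen1 (-0.021) and Tk1 (-0.087). With GC offsets it changed for Pcna (0.0093), Rrm1 (0.056), Ccne2 (0.0046), E2f1 (-0.091) and Uhrf1 (-0.086). The cause was not tested. Each of the 45 genes had at least 400 reads in each library.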
